A study of Homo sapiens with 10 samples.

Results

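The levels of 7 mitochondrially encoded transcripts of the oxidative phosphorylation system were measured in 501Mel, an established human melanoma cell line, by RNA-seq of polyadenylated RNA. The transcripts are MT-ND1, MT-ND2, MT-CO1, MT-CO2, MT-CO3, MT-ATP6 and MT-CYB. They are 7 of 38 oxidative phosphorylation genes chosen for their function, of which 13 are encoded in mitochondrial DNA and 25 in the nucleus, and 7 of the 187626 transcripts that the tables list. The tables name transcripts and not genes, and a transcript identifier was at hand for these 7 genes. The 6 other mitochondrial genes (MT-ND3, MT-ND4, MT-ND4L, MT-ND5, MT-ND6 and MT-ATP8) and the 25 nuclear genes were not analysed here, so mitochondrial and nuclear genes were not compared. The nuclear genes are PPARGC1A, a transcriptional coactivator, the electron carrier gene CYCS, the complex I genes NDUFA1, NDUFA9, NDUFB5, NDUFB8, NDUFS1, NDUFS3, NDUFV1 and NDUFV2, and the complex II genes SDHA, SDHB, SDHC and SDHD. They also include the complex III genes UQCRC1, UQCRC2, UQCRFS1, UQCRB and CYC1 and the complex IV genes COX4I1, COX5A, COX5B, COX6C, COX7A2 and NDUFA4.

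Cells carried an siRNA named siIRF4 in 3 libraries and one named siCTRL in 3 libraries. All 6 libraries come from this single line, and the labels give neither the time after transfection nor the siRNA sequences. The study also mapped an eGFP-tagged IRF4 in the same line by ChIP-seq in 2 replicates, with 2 input samples that were not analysed here. IRF4 is interferon regulatory factor 4, a transcription factor of the pigment and lymphoid lineages.

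Oxidative phosphorylation passes electrons along the respiratory chain of the inner mitochondrial membrane, which pumps protons, and ATP synthase uses the proton gradient to make ATP. Complexes I, III and IV of the chain and ATP synthase (complex V) are built from subunits of both genomes, whereas complex II is wholly nuclear. Mitochondrial DNA is transcribed into long precursors that are cut at tRNA sequences, and most of the resulting mRNAs receive a poly(A) tail, which is why they appear in libraries of polyadenylated RNA. In melanoma, the coactivator encoded by PPARGC1A is known to raise mitochondrial gene expression in a subset of tumours with high MITF.

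In RefSeq's annotation of GRCh38.p14, each of the 7 transcripts is an uninterrupted stretch of chromosome MT, and its length in the deposited tables equals the RefSeq length. MT-ND1 (ENST00000361390.2) spans 3307 to 4262 and MT-ND2 (ENST00000361453.3) spans 4470 to 5511. Both encode membrane subunits of complex I. MT-CO1 (ENST00000361624.2) spans 5904 to 7445, MT-CO2 (ENST00000361739.1) spans 7586 to 8269 and MT-CO3 (ENST00000362079.2) spans 9207 to 9990. These encode the catalytic core of complex IV, cytochrome c oxidase. MT-ATP6 (ENST00000361899.2), the proton channel subunit of complex V, spans 8527 to 9207. MT-CYB (ENST00000361789.2), cytochrome b of complex III, spans 14747 to 15887. MT-ATP6 shares 46 bases with MT-ATP8 and 1 base with MT-CO3. Fragments over the shared bases are divided between transcripts by estimation, so the values of MT-ATP6 in particular carry that uncertainty. Fragments that match nuclear copies of mitochondrial DNA are divided in the same way. How far such copies affect each of the 7 was not analysed here.

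Estimated counts summed to between 129989698 and 203758441 per library, of which the 7 transcripts held between 3485774 and 5405267. Each of the 7 had at least 211505 estimated counts in every library. The level of IRF4 and markers of pigment cells and of other cell types were not analysed here, so neither the siRNA labels nor the cell type label was checked on expression. The libraries did not separate by label: on the first principal component of all tested transcripts, which carried 33.6% of the variance, siIRF4 replicate 1 (-111) lay with siCTRL replicates 1 (-128) and 3 (-173). On the same component, siCTRL replicate 2 (132) lay with siIRF4 replicates 2 (199) and 3 (80.8). By number, the libraries numbered 1 (-111 and -128) lay near each other, and those numbered 2 (199 and 132) lay on the same side. Those numbered 3 (80.8 and -173) lay apart. Results are also given without siIRF4 replicate 1 and siCTRL replicate 2. That choice follows this component of the same data, and it leaves out 1 library numbered 1 and 1 numbered 2.

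The 7 transcripts were among the most abundant of all. TPM is the level per effective transcript length, scaled to 1000000 per library. MT-CO2 was the most abundant of all listed transcripts in each of the 6 libraries, and MT-CO1 was the next in each. MT-CO3 ranked between 3 and 4, MT-ATP6 between 4 and 6, MT-CYB between 10 and 15, MT-ND1 between 13 and 21 and MT-ND2 between 19 and 30. Together the 7 transcripts took between 4.93% and 5.80% of a library's TPM.

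The complex IV transcripts had the highest levels. MT-CO1 had 10487, 11679 and 11222 TPM in siIRF4 replicates 1, 2 and 3 and 11748, 12156 and 11353 TPM in siCTRL replicates 1, 2 and 3. Its lowest value was that of siIRF4 replicate 1, and the groups overlapped (11129 ± 601 TPM in siIRF4 and 11753 ± 402 in siCTRL, SD, n = 3 each). MT-CO2 had 13546, 15498 and 13483 TPM in siIRF4 and 13652, 14015 and 14738 TPM in siCTRL. Both the highest and the lowest value belonged to siIRF4, so the siCTRL values lay wholly inside the siIRF4 range (14176 ± 1145 and 14135 ± 553 TPM). MT-CO3 had 9107, 10454 and 8871 TPM in siIRF4 and 9587, 9912 and 9954 TPM in siCTRL. Here too siCTRL lay inside the range of siIRF4 (9477 ± 854 and 9817 ± 201 TPM).

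MT-ATP6 of complex V had 7120, 7674 and 6174 TPM in siIRF4 and 6517, 6933 and 6361 TPM in siCTRL. The group means were 6989 ± 759 and 6604 ± 296 TPM, and the siCTRL values lay inside the siIRF4 range. MT-CYB of complex III had 4123, 4545 and 3816 TPM in siIRF4 and 3910, 4593 and 5030 TPM in siCTRL. The highest 2 values were siCTRL replicates 3 and 2, whereas siCTRL replicate 1 lay among the siIRF4 values (4162 ± 366 and 4511 ± 564 TPM).

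The complex I transcripts had the lowest levels of the 7 and the widest spread between libraries. MT-ND1 had 3652, 4537 and 2997 TPM in siIRF4 and 3220, 4011 and 3430 TPM in siCTRL. Its highest and lowest values, which differed 1.51-fold, were both from siIRF4 (3729 ± 773 TPM, against 3554 ± 410 in siCTRL). MT-ND2 had 3247, 3619 and 2757 TPM in siIRF4 and 2626, 3415 and 3072 TPM in siCTRL. The lowest value was siCTRL replicate 1 and the highest siIRF4 replicate 2, with overlap between the groups (3208 ± 432 and 3038 ± 396 TPM).

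**Figure D1:**
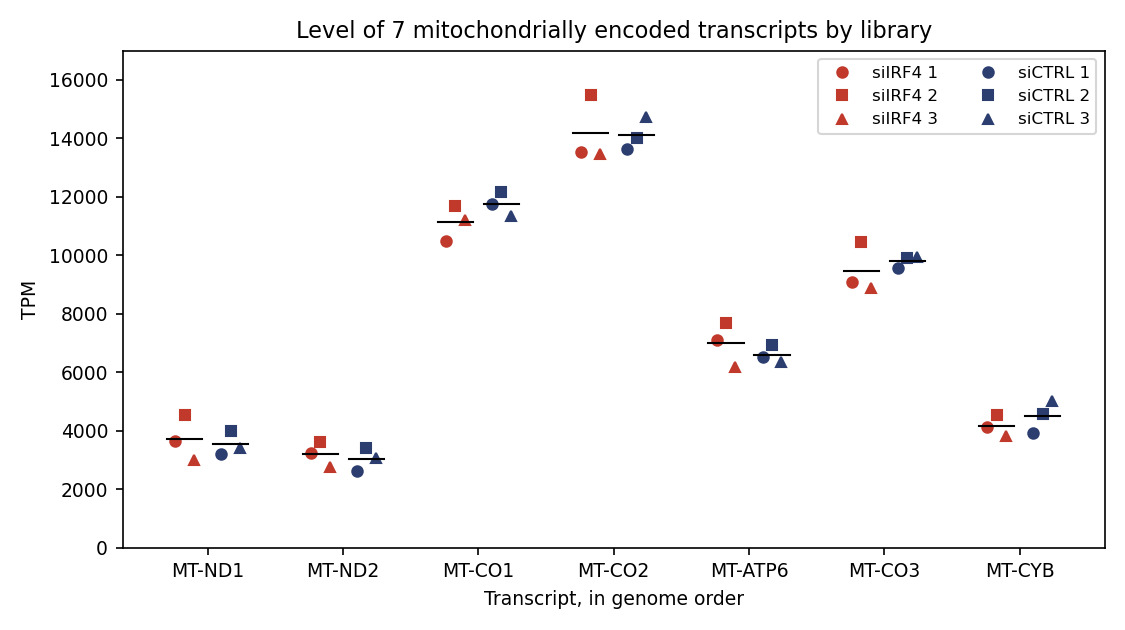
TPM (vertical axis, linear from 0) of each of the 7 transcripts in genome order, with 1 point per library, red for siIRF4 and blue for siCTRL, marker shapes for replicates 1 to 3 and a black line at each group mean (n = 3). The red and blue points overlap for every transcript, while the transcripts themselves differ from 2626 TPM (lowest MT-ND2) to 15498 TPM (highest MT-CO2).

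By mean TPM over the 6 libraries the order was MT-CO2 (14155), MT-CO1 (11441), MT-CO3 (9647), MT-ATP6 (6796), MT-CYB (4336), MT-ND1 (3641) and MT-ND2 (3123). Each transcript exceeded the next in 6 of 6 libraries. The ranges over libraries did not overlap between neighbours from MT-CO2 down to MT-CYB, but they overlapped between MT-CYB and MT-ND1 and between MT-ND1 and MT-ND2. The place at the top depended on the length used. Per kilobase of full transcript length, MT-CO1 exceeded MT-CO2 in 6 of 6 libraries, whereas TPM, which divides by effective length, put MT-CO2 above MT-CO1 in 6 of 6. MT-CO2 is 684 bases long and MT-CO1 1542 bases. Mean fragments, inferred from effective lengths, were between 262.7 and 297.3 bases, so the correction for effective length is larger for MT-CO2.

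Whether targeting IRF4 changes these transcripts was asked by comparing siIRF4 with siCTRL. No difference was detected for any of the 7. In edgeR's quasi-likelihood test over 83831 transcripts, 0 of 7 passed an adjusted p of 0.05 and 0 of 7 had an unadjusted p under 0.05. Among all transcripts tested, 0 passed the adjusted threshold (0%) and 1791 (2.14%) had an unadjusted p under 0.05. DESeq2 called 0 of the 7, against 190 of the 104201 transcripts to which it gave an adjusted p (0.182%). The groups overlapped in CPM (counts scaled to a library total of 1000000) for all 7, while 7.11% of all tested transcripts had no overlap between the groups. Replicates are separate libraries by their labels, which do not say whether they come from separate cultures, so the p-values measure the spread between these libraries.

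The log2 fold changes of siIRF4 against siCTRL were small and of both signs, positive for 4 transcripts and negative for 3. Among the complex IV transcripts, MT-CO1 gave -0.07 (SE 0.091), which leaves a 95% interval of 0.820-fold to 1.11-fold. MT-CO2 gave 0.05 (interval 0.856-fold to 1.25-fold) and MT-CO3 gave -0.02 (0.818-fold to 1.20-fold). MT-ATP6 gave 0.13 (SE 0.129; 0.884-fold to 1.35-fold), a value that ran from 0.05 without siIRF4 replicate 2 to 0.24 without siIRF4 replicate 3. MT-CYB gave -0.10 (0.731-fold to 1.20-fold). The complex I transcripts had the widest intervals, 0.778-fold to 1.48-fold around 0.10 for MT-ND1 and 0.814-fold to 1.42-fold around 0.10 for MT-ND2. The edgeR adjusted p of each of the 7 rounded to 1. With all 6 libraries in edgeR, a change of 1.5-fold or more in either direction lay outside the interval of each transcript, narrowly so for MT-ND1. The plan named no such limit, and 1.5-fold is a description of these same intervals. Which smaller changes lay inside the interval differed by transcript, with the narrowest interval for MT-CO1 and the widest for MT-ND1. The 1.5-fold limit did not hold in every fit for 3 of the 7. Among 15 edgeR and DESeq2 alternatives, the interval reached it in 7 for MT-ND1, in 4 for MT-ND2 and in 1 for MT-CYB. Apart from DESeq2, each of these fits left out at least 1 library. For MT-ND1, leaving out any single library except siIRF4 replicate 2 was enough. The bounds reached 1.80-fold for MT-ND1, 1.64-fold for MT-ND2 and 0.638-fold for MT-CYB without siIRF4 replicate 1 and siCTRL replicate 2, and 1.54-fold for MT-ND1 in DESeq2. For MT-CO1, MT-CO2, MT-CO3 and MT-ATP6 the bounds stayed between 0.750-fold and 1.46-fold over the 15 edgeR and DESeq2 alternatives.

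**Figure D2:**
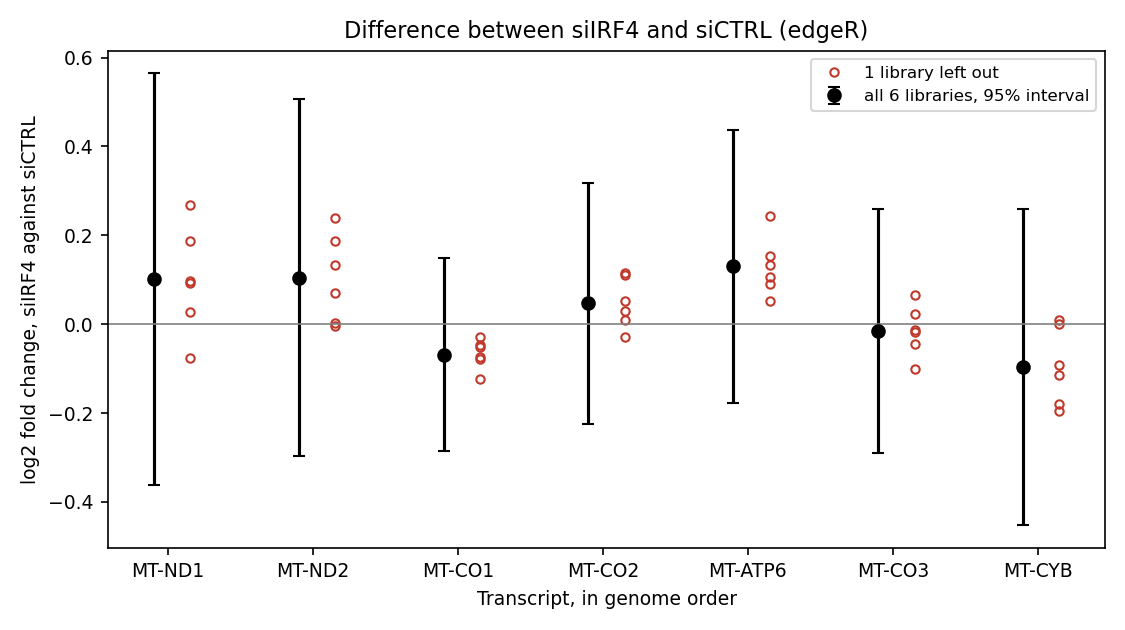
Log2 fold change of siIRF4 against siCTRL from edgeR (vertical axis) for the 7 transcripts in genome order. Black points with bars are the estimates with 95% intervals from all 6 libraries, and open red circles are the estimates with 1 library left out. Every bar includes 0, the widest being MT-ND1 (-0.36 to 0.56), and the red circles of 5 transcripts fall on both sides of 0.

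The median log2 fold change was 0.05 over the 7 transcripts, -0.01 over all 83831 tested and 0.04 over the 120 other transcripts with a mean of at least 1000 TPM. The median size without regard to sign was 0.10 in the 7 and 0.07 in those 120. The median SD of log2 TPM between replicates was 0.13 in siIRF4 and 0.06 in siCTRL for the 7, and 0.14 and 0.11 for the 120, a class in which 0 transcripts passed the adjusted threshold. The sign of the median of the 7 rested on siIRF4 replicate 2: without that library it was -0.08. Without siIRF4 replicate 1 and siCTRL replicate 2 it was 0.04, with values from -0.11 (MT-CYB) to 0.18 (MT-ND1) and 0 of 7 past the threshold in edgeR (lowest adjusted p 0.851, MT-ND2). In that fit 0 of all 85498 transcripts tested passed the adjusted threshold. An unadjusted edgeR p under 0.05 was reached by 10811 of them and by 0 of the 7, against 1791 of 83831 with all 6 libraries.

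As a sum, the 7 transcripts took 5.13%, 5.80% and 4.93% of TPM in siIRF4 replicates 1, 2 and 3. In siCTRL replicates 1, 2 and 3 they took 5.13%, 5.50% and 5.39%. The siCTRL libraries lay inside the range of the siIRF4 libraries. The group means were 5.29% ± 0.455 and 5.34% ± 0.194 (SD, n = 3 each), a difference of -0.0542 percentage points with a two-sided exact permutation p of 1 (the smallest this design allows is 0.1). As a share of estimated counts, the means were 2.58% ± 0.230 and 2.60% ± 0.131 (exact permutation p = 0.9). The sign of the difference rested on single libraries: it was 0.0252 percentage points without siIRF4 replicate 1, 0.123 without siIRF4 replicate 3 and 0.0271 without siCTRL replicate 2. Without both siIRF4 replicate 1 and siCTRL replicate 2 it was 0.106, in a design of 2 against 2 libraries whose smallest exact permutation p is 0.333.

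**Figure D3:**
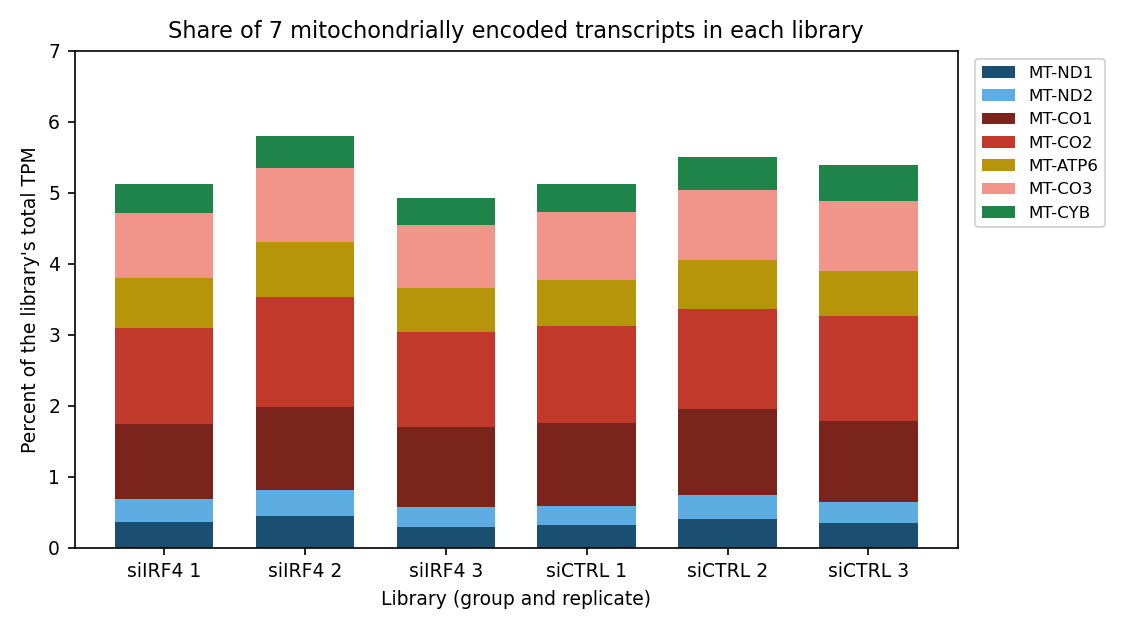
Percent of a library's total TPM (vertical axis, from 0) held by each of the 7 transcripts, stacked, in each of the 6 libraries. The total lies between 4.93% (siIRF4 replicate 3) and 5.80% (siIRF4 replicate 2), and the 3 complex IV transcripts in reds and pink form the greater part of each bar.

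By complex, the makeup of this pool varied within a few percentage points over the 6 libraries. Complex I stands here for MT-ND1 and MT-ND2 only and complex V for MT-ATP6 only, so the sizes of these shares depend on which transcripts were identified. Complex IV transcripts held between 64.6% and 68.3% of the summed TPM of the 7, complex V between 11.8% and 13.9%, complex I between 11.4% and 14.1% and complex III between 7.63% and 9.32%. The difference of group means was 0.742 percentage points for complex I and -1.02 for complex IV, with a two-sided exact permutation p of 0.5 for both. For complex III it was -0.562 (exact permutation p = 0.4) and for complex V 0.843 (exact permutation p = 0.3). Adjusted over these 4 comparisons by the Benjamini-Hochberg method, each p was 0.5. In estimated counts, MT-ATP6 as a share of the 7 was 8.37%, 7.92% and 7.46% in siIRF4 and 7.34%, 7.27% and 7.02% in siCTRL. On that scale siIRF4 lay wholly above siCTRL, whereas on the TPM scale siIRF4 replicate 3 (12.5%) lay below siCTRL replicates 1 and 2 (12.7% and 12.6%). The exact permutation p in counts was 0.1, the smallest possible, and MT-ATP6 was picked out after its values were seen.

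The ratio of complex I to complex IV transcripts takes complex I from MT-ND1 and MT-ND2 only, because the other mitochondrial complex I genes were not analysed. Its size is therefore not a balance of whole complexes. This ratio differed between libraries of the same label. It was 0.208, 0.217 and 0.171 in siIRF4 replicates 1, 2 and 3, and 0.167, 0.206 and 0.180 in siCTRL replicates 1, 2 and 3. Each group thus held both high and low libraries. The mean log2 ratio was -2.34 ± 0.18 in siIRF4 and -2.44 ± 0.15 in siCTRL (SD, n = 3 each), a difference of 0.11 with a two-sided exact permutation p of 0.4. With 1 library left out, the difference ran from 0.04 (without siCTRL replicate 1, and likewise without siIRF4 replicate 2) to 0.21 (without siIRF4 replicate 3), and it was 0.19 without siCTRL replicate 2 and 0.07 without siIRF4 replicate 1. Without both siIRF4 replicate 1 and siCTRL replicate 2 it was 0.15.

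The 7 transcripts moved in part together from library to library. siIRF4 replicate 2 held the highest TPM of 5 of the 7, all but MT-CO1 and MT-CYB, and siIRF4 replicate 3 the lowest of 5, all but MT-CO1 and MT-ND2. The mean deviation of the 7 from their own means was 0.16 in siIRF4 replicate 2, 0.08 in siCTRL replicate 2 and 0.02 in siCTRL replicate 3 on the log2 scale. It was -0.03 in siIRF4 replicate 1, -0.09 in siCTRL replicate 1 and -0.14 in siIRF4 replicate 3. This shared shift per library accounted for 59.5% of the summed squared deviations of log2 TPM, a description that includes the scaling common to all values of a library. siIRF4 replicate 2 had 135991544 estimated counts and an inferred mean fragment length of 285.1 bases, and siIRF4 replicate 3 had 150847346 and 262.7 bases. Between them in shift, siCTRL replicate 2 had 203758441 and 294.5 bases and siCTRL replicate 3 had 129989698 and 272.5 bases. siIRF4 replicate 1 had 143091223 and 271.5 bases, and siCTRL replicate 1 had 152672204 and 297.3 bases. The part of depth and fragment length in the shift was not tested.

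The transcripts differed in how far they moved. The SD of log2 TPM over the 6 libraries was 0.22 for MT-ND1, 0.18 for MT-ND2, 0.15 for MT-CYB, 0.12 for MT-ATP6, 0.09 for MT-CO3, 0.08 for MT-CO2 and 0.07 for MT-CO1. The order is nearly the reverse of that of the levels, with the complex I transcripts most variable and the complex IV transcripts least. With each library's mean shift removed, the SD fell to 0.12 for MT-ND1 and 0.09 for MT-ND2, but for MT-CO1 it was 0.10, above its SD before removal. MT-CO1 was the only one of the 7 whose SD did not fall. In siIRF4 replicate 2, MT-CO1 deviated by 0.03 where MT-ND1 deviated by 0.33, and in siIRF4 replicate 3 by -0.03 where MT-ND1 deviated by -0.27.

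**Figure D4:**
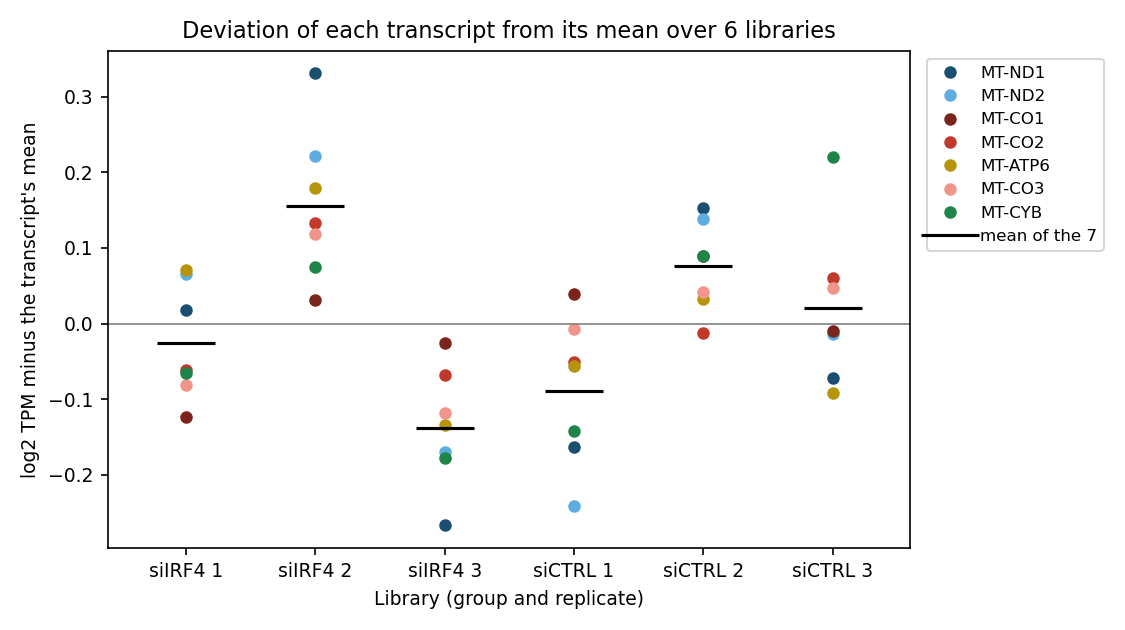
Deviation of log2 TPM from each transcript's own mean (vertical axis) in the 6 libraries, with 1 coloured point per transcript and a black bar at the mean of the 7. siIRF4 replicate 2 lies highest (mean 0.16) and siIRF4 replicate 3 lowest (mean -0.14), and MT-ND1 lies farthest from 0 in both.

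In the ChIP-seq peak lists of eGFP-tagged IRF4, 0 of 7568 peaks in replicate 1 and 0 of 12831 in replicate 2 lay on the mitochondrial chromosome. Whether the authors removed mitochondrial reads before calling peaks is not given in the sources used here, so these counts do not show an absence of signal. Peaks near the nuclear genes were not analysed here.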

How the data were processed

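Poly(A) RNA-seq gave 1 table per library, deposited by the authors with estimated counts and TPM per Ensembl transcript, per the file headers. The submitters' processing notes name kallisto, sleuth and Bowtie2 and the builds GRCh38 and hg19; versions and settings are not given in the sources used here. ChIP peaks carry a score deposited by the authors, which was not used. Members, lists and alternatives were chosen with earlier results of these data known. The plan foresaw counts summed per gene; without a table pairing transcripts with genes, each transcript was tested, as the plan allowed. The gene lists and cell type markers of the plan were not analysed here. The rule for named genes asked for the mitochondrial genes library by library; it is met for the 7 identified.

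Estimated counts were rounded and tested with edgeR 4.0.16 (R 4.3.3; TMM, filterByExpr, quasi-likelihood, two-sided, Benjamini-Hochberg, threshold 0.05, no block), which kept 83831 transcripts with 99.9% of counts. Standard errors are the absolute log2 fold change over the square root of F, and intervals use the fit's degrees of freedom. Fits were tested on simulated data. Alternatives were DESeq2 1.42.0, limma 3.58.1 (voom, and on log2(TPM + 1) and log2(TPM + 0.1)), other normalizations, filters and a length offset, the replicate block and left-out libraries. Single values used exact permutation (scipy 1.17.1). Principal components were taken of log2 CPM (prior count 2). The mean fragment length of a library was inferred as the median over long transcripts of length minus effective length plus 1. Library pairs differed by a chi-square per degree of freedom of at least 38.6, so none was a duplicate. The complex ratios, the order per full length and the shared shift were added after the data were seen.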

Additional observations from a re-analysis of the deposited data

How the results depend on the processing

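The count of 0 of 7 transcripts past the adjusted threshold was the same in all 18 alternatives to the main edgeR fit: upper-quartile or RLE factors, totals without the 7 transcripts, a minimum mean of 1 CPM, no filter, the length offset, DESeq2, limma on either TPM scale, limma-voom, the replicate block, each library left out, and siIRF4 replicate 1 left out with siCTRL replicate 2. Over all tested transcripts, only DESeq2 (190 of 104201) and limma on log2(TPM + 0.1) (8 of 83831) called any. The count of 0 of 7 therefore does not set these transcripts apart from the others. The lowest adjusted p among the 126 values was 0.851. The median log2 fold change of the 7 ranged from -0.076 (without siIRF4 replicate 2) to 0.115 (without siIRF4 replicate 3) over the left-out libraries, and from 0.0002 (length offset) to 0.05 in the others. The sign of a single transcript reversed in 7 of the 126 values, each with a library left out: without siIRF4 replicate 2 for MT-ND1 (-0.0759), MT-ND2 (-0.0036) and MT-CO2 (-0.0279), without siIRF4 replicate 3 for MT-CO3 (0.0650) and MT-CYB (0.0011), and without siCTRL replicate 3 for MT-CO3 (0.0218) and MT-CYB (0.0083). Over the left-out libraries, the log2 fold change ran from -0.0759 to 0.269 for MT-ND1, -0.0036 to 0.239 for MT-ND2, -0.0279 to 0.115 for MT-CO2, -0.1000 to 0.0650 for MT-CO3 and -0.196 to 0.0083 for MT-CYB. It ran from -0.123 (without siIRF4 replicate 2) to -0.0290 (without siIRF4 replicate 3) for MT-CO1 and from 0.0530 to 0.243 for MT-ATP6 without the same libraries. MT-CO1 and MT-ATP6 kept their signs in all 18.

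The difference in summed share (-0.0542 percentage points of TPM) was -0.0209 in estimated counts, ranged from -0.311 (without siIRF4 replicate 2) to 0.123 (without siIRF4 replicate 3), and was 0.106 without siIRF4 replicate 1 and siCTRL replicate 2. The cause of these reversals was not tested. With the replicate block, the median log2 fold change was 0.04, and the mean within-number difference in share was -0.0542, higher in siIRF4 in 2 of 3 pairs (exact sign-flip permutation p = 1). Over all tested transcripts, deviations of log2 CPM from the group mean correlated at 0.20, 0.24 and 0.04 between libraries numbered 1, 2 and 3. By these correlations, 4 of 6 libraries matched their own number best in the other group. Pairing was undecided, and the main fit had no block. Not run were the alternatives for the level of IRF4, nuclear genes, the mitochondrial to nuclear ratio, pseudogene copies, and the omission of MT-ND6, MT-ND4L and MT-ATP8. Each of the 7 had at least 211505 estimated counts per library, and with 3 libraries per group the spread between libraries limits the intervals.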
